A study of Mus musculus with 12 samples.

Results

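Voltage-gated sodium and calcium channel genes were followed in the spinal cord of young and aged mice, intact or 9 days after contusion. The genes were chosen by name, as array probes annotated to a single gene whose symbol starts with Scn and a digit, or with Cacna, Cacnb or Cacng, and each was read on its probe of highest mean signal over the 12 arrays. They were 35 of the 18194 genes with such a probe. Other genes of these families were not analysed here.

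All mice were female C57BL/6 (C57BL/6J in the study's methods), and none of the animals on these arrays had received transplanted cells. The 4 groups were young intact mice and young injured mice of 2 to 3 months, and aged intact mice and aged injured mice of 15 to 18 months, with 3 arrays per group. Injured mice were contused with an impactor at Th9, in the thoracic cord, and that segment was taken 9 days later. The intact mice had no injury, so the comparison with them covers the contusion and everything that went with it.

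A voltage-gated sodium channel is built around a large pore-forming alpha subunit, which carries the inward current of the action potential, and smaller beta subunits that alter its gating and its place in the membrane. A voltage-gated calcium channel has a pore-forming alpha-1 subunit, a cytoplasmic beta subunit and an extracellular alpha-2-delta subunit, and in the spinal cord such channels open at nerve terminals to trigger transmitter release. Most genes of the Cacng family are named after a calcium channel subunit of skeletal muscle but encode proteins that carry AMPA-type glutamate receptors to synapses.

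Signals were on the linear MAS5 scale, on which values under 50 were treated as not detected. The mean over the 12 arrays exceeded 50 for 17 of the 35 genes, namely Scn1a, Scn2a, Scn3a, Scn7a, Scn8a, Scn2b, Scn3b, Scn4b, Cacna1b, Cacna1e, Cacna2d1, Cacna2d2, Cacna2d3, Cacnb4, Cacng2, Cacng4 and Cacng5. By group, the mean exceeded 50 for 18 genes in young intact, 20 in aged intact, 15 in young injured and 13 in aged injured mice, and for 12 genes in every group. A mean above 50 in at least 1 group was needed to enter the test, and 21 of the 35 genes passed, with Cacna1a, Cacna1d, Cacnb2 and Cacng7 as the additional genes. The other 14 genes had no group mean above 50 and were not tested. Cacna1a passed through aged intact mice alone. Cacna1b, Scn3a, Cacnb2, Cacng5 and Cacng7 passed through the intact groups alone, and Cacna1d through the injured groups alone. For these genes, entry to the test was tied to the difference between intact and injured mice. Counts over the 21 genes are therefore a description of detected genes and not of all 35.

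In the intact cord the pore genes Scn1a, Scn2a, Scn3a and Scn8a, all 3 sodium beta genes, and the alpha-2-delta genes Cacna2d1, Cacna2d2 and Cacna2d3 were above 50 in every mouse of both ages. After injury 16 of the 21 tested genes fell in young mice (15 without Cacna1a, whose young means were both under 50) and 18 of 21 in aged mice, while the background over all 10511 tested genes was 34.1% lower in young and 39.9% lower in aged mice (limma, adjusted p under 0.05). The genes that rose were Scn7a and Cacna1d in young mice, where 33.9% of all tested genes rose, and Cacna1d alone in aged mice, where 35.6% rose. The median log2 difference between injured and intact mice was -1.35 over the 21 genes in young and -2.23 in aged mice, beside medians of -0.00 and -0.04 over all tested genes, and the aged median over the 21 was -1.51 without aged injured replicate 1. All 3 injured arrays lay below all 3 intact arrays for 19 of the 21 genes in young mice, where 38.7% of all tested genes did so, and for 18 of the 21 in aged mice, against 41.6% of all tested genes.

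The RNA came from a whole segment, in which fewer neurons and less channel RNA per neuron cannot be told apart. Summed signals of the 25 neuron markers ran from 29757 to 31323 in young intact, from 30649 to 30712 in aged intact, from 9551 to 14681 in young injured and from 2577 to 13328 in aged injured mice. Of the 23 neuron markers that were tested, 18 fell in young and 23 in aged mice, with median log2 differences of -1.64 and -2.49 (-1.71 in aged mice without aged injured replicate 1). Each of the 14 macrophage and microglia markers had a mean above 50 in at least 1 group. Over the same groups these markers summed to 3528 to 3958 in young intact, 6776 to 7127 in aged intact, 37437 to 48136 in young injured and 46814 to 54201 in aged injured mice. Aged injured replicate 1 stood apart, with the lowest neuron sum (2577), astrocyte sum (12560.3) and myelin and oligodendrocyte sum (17973) of the 12 arrays. Where the fold of a called aged fall changed without this array, the fold without it is given too.

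**Figure D1:**
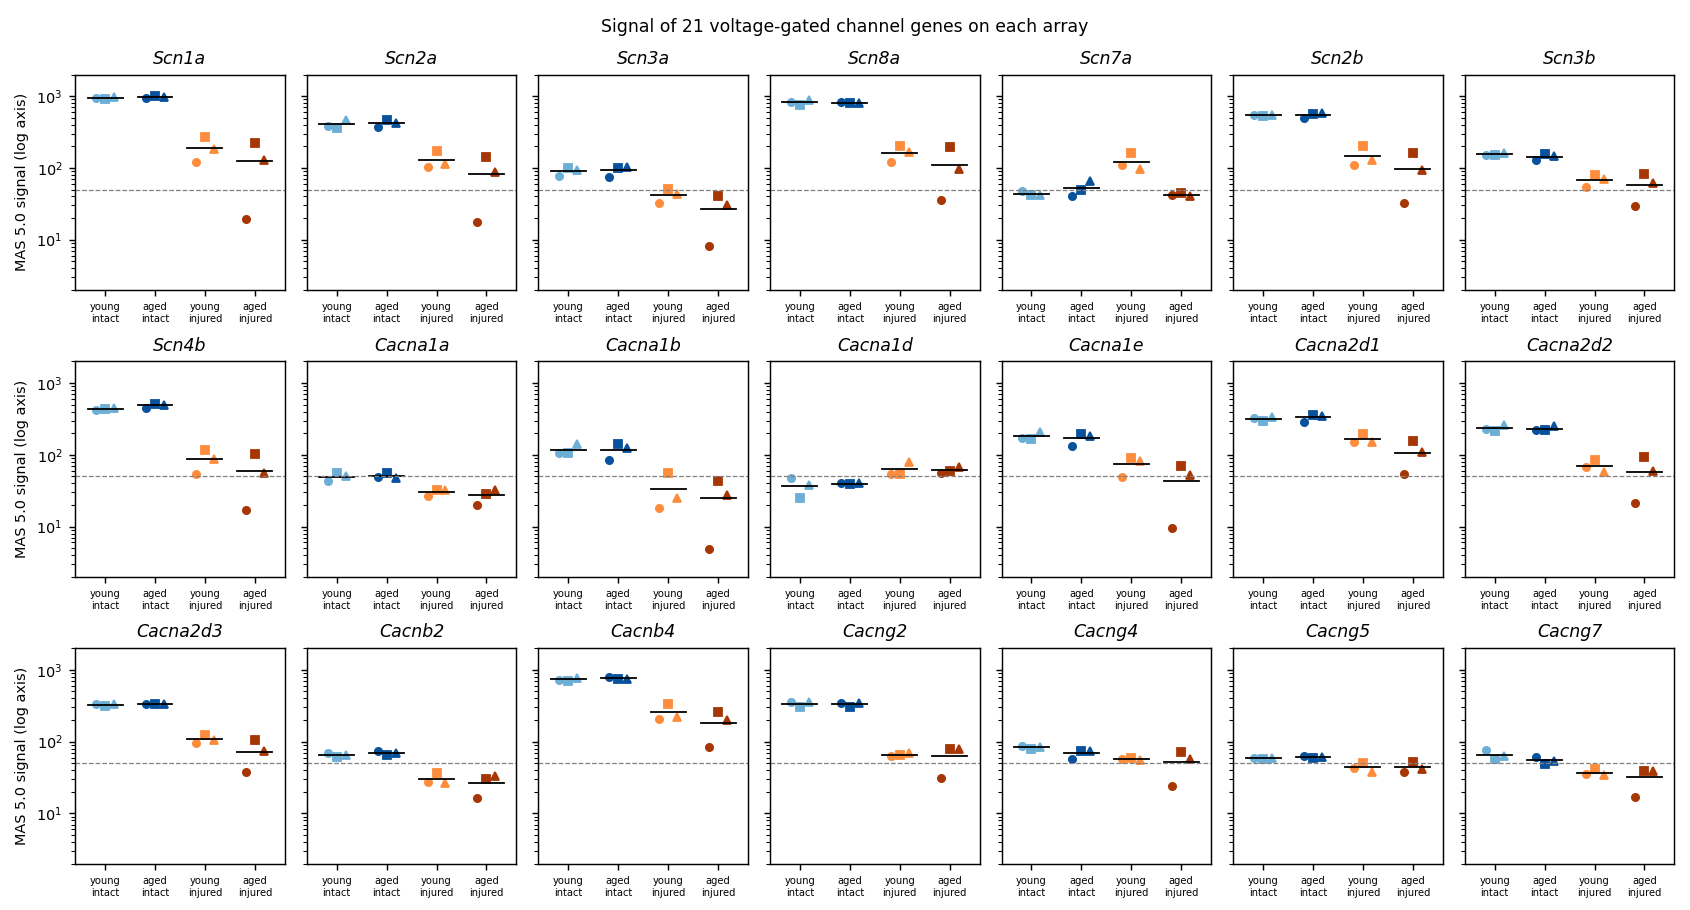
Signal of each of the 21 tested channel genes on every array (log axis), with 1 panel per gene and 1 column per group. Points are single arrays (circle, square and triangle for replicates 1, 2 and 3), the solid line is the group mean and the dashed line marks a signal of 50; in most panels the injured arrays lie below the intact ones and aged injured replicate 1 is lowest, whereas Scn7a is raised in the young injured mice alone.

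Among the sodium pore genes, Scn8a and Scn1a, whose channels sit at the axon initial segment and at nodes of Ranvier and start and carry the action potential, gave the largest falls. Their promoter sequences are shown with that of Scn7a, because Scn1a and Scn7a lie in the same cluster of sodium channel genes on chromosome 2, with Scn2a, Scn3a and Scn9a, yet moved in opposite directions after injury in young mice, while Scn8a lies apart on chromosome 15. Each stretch covers 250 bases before to 50 bases after the annotated start of transcription (RefSeq, GRCm38.p6), in lower case with every CG pair in capitals.
Scn1a, chr2:66440788-66441087, minus strand: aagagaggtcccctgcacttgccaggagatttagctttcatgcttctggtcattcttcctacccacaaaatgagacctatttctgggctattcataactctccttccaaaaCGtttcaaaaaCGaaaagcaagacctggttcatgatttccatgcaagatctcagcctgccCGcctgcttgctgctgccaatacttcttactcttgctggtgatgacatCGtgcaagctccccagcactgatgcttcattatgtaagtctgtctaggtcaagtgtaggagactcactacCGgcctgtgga
Scn8a, chr15:100870395-100870694, plus strand: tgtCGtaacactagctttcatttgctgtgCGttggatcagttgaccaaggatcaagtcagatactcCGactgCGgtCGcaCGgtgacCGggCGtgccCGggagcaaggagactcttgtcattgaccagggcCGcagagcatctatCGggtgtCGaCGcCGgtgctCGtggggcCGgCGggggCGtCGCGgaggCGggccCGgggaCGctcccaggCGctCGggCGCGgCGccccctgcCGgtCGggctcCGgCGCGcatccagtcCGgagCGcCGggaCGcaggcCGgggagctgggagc
Scn7a, chr2:66784861-66785160, minus strand: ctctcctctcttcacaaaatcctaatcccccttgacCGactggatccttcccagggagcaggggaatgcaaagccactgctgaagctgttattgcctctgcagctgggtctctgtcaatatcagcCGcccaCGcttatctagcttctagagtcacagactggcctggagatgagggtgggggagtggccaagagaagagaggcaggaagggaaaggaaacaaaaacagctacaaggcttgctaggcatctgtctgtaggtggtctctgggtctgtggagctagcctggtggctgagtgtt

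The Scn8a stretch shown held 38 CG pairs, the Scn1a stretch 5 and the Scn7a stretch 3, beside a median of 7 over all 32851 promoter stretches of the same length. Another listed Scn8a stretch held 12 CG pairs, and the one with more pairs was shown. Promoters were listed for 27 of the 35 genes, in 37 stretches with a median of 9 CG pairs and a range from 2 to 63. The letters GGGCGG (on either strand), the core of a binding motif for Sp-family factors, were found in 14 of the 37 (37.8%) and in 35.7% of all stretches. TATAAA was found in 2 (5.41%) against 13.6% of all, and TGANTCA, the letters bound by AP-1 factors, in 1 (2.70%) against 7.81% of all, searched on both strands. These are matches of letters in a fixed window and say nothing of binding.

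Scn1a gave signals of 941, 917 and 967 in young intact and 927, 1005 and 961 in aged intact mice. After injury its signals were 122, 267 and 185 in young and 19.3, 224 and 128 in aged mice. The injured and intact arrays did not overlap at either age, and the lowest value by far was that of aged injured replicate 1. The fall was 5.18-fold in young mice (ratio of geometric means, log2 difference -2.37, SE 0.68, adjusted p = 0.00973) and 11.7-fold in aged mice (log2 difference -3.55, SE 0.68, adjusted p = 0.000654). Without aged injured replicate 1 the aged fold of Scn1a was 5.69, close to the young value, and without aged injured replicate 2 it was at least 19.3.

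Scn8a, the main pore gene at mature nodes of Ranvier, read 829, 762 and 879 in young intact and 832, 813 and 795 in aged intact mice. Its injured signals were 121, 204 and 166 in young and 35.8, 198 and 96.7 in aged mice. As for Scn1a, every injured array lay below every intact array. The log2 difference was -2.36 (SE 0.46, adjusted p = 0.000987) in young mice, a 5.13-fold fall, and -3.21 (SE 0.46, adjusted p = 8.93e-05) in aged mice, a 9.23-fold fall that became 5.88-fold without aged injured replicate 1 and 13.8-fold without aged injured replicate 2.

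Scn2a, a pore gene of initial segments and unmyelinated axons, read 382, 363 and 467 in young intact, 366, 470.3 and 420.2 in aged intact, 103, 172 and 112 in young injured and 17.9, 142 and 87.5 in aged injured mice. Injured and intact arrays of Scn2a were apart at both ages. It fell 3.19-fold in young mice (log2 difference -1.68, SE 0.58, adjusted p = 0.0232) and 6.87-fold in aged mice (log2 difference -2.78, SE 0.58, adjusted p = 0.00109). The young call was lost, with an adjusted p of up to 0.0722, when young intact replicate 3, young injured replicate 1 or young injured replicate 3 was left out, and the aged fold was 3.73 without aged injured replicate 1. Scn3a, the pore gene best known from the immature nervous system, had means of 91.2 ± 11.6 in young intact and 92.5 ± 16.5 in aged intact (SD, n = 3 here and below), 42.0 ± 9.29 in young injured and 26.4 ± 16.6 in aged injured mice. Its change in young mice did not pass the test (log2 difference -1.14, adjusted p = 0.0503), and in aged mice it fell at least 1.83-fold (adjusted p = 0.00193), with the injured group set to 50 because its mean was below that value.

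Scn7a was the sodium channel gene that rose. It encodes an atypical member of the family, known as a sensor of extracellular sodium in glia rather than as a channel of action potentials. Its signals were 47.5, 42.0 and 41.4 in young intact, 41.0, 49.9 and 64.9 in aged intact, 109, 159.9 and 95.7 in young injured and 42.5, 44.4 and 40.1 in aged injured mice. The 3 young injured arrays were above all others, and the aged injured arrays overlapped with the intact ones. The rise in young mice was at least 2.37-fold (log2 difference 1.44, SE 0.20, adjusted p = 0.000109), with the intact group set to 50. In aged mice the log2 difference of -0.27 (SE 0.20) did not pass the test (adjusted p = 0.241). The effect of injury itself differed between the ages for Scn7a (interaction on the log2 scale -1.72, SE 0.29, adjusted p = 0.0376), the only one of the 21 genes for which it did, where 0.304% of all tested genes had a lower effect in aged mice.

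The other probes for Scn7a showed the same order of groups. A second probe read 74.4, 84.0 and 75.7 in young injured mice and between 28.7 and 39.7 on the other 9 arrays. Another probe, which never reached 50, read 22.0, 29.5 and 19.1 in young injured mice and between 4.4 and 11.8 elsewhere. The interaction of Scn7a lost its call (adjusted p of up to 0.108) when any 1 of the 6 intact arrays, young injured replicate 1 or aged injured replicate 3 was left out, with the mean over probes, without a cutoff on signal and with the replicate number as a block (adjusted p = 0.0502, 0.0521 and 0.0676 in these last fits), while its size with 1 array left out stayed between -1.87 and -1.50.

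Markers of peripheral nerve were examined beside Scn7a, because Schwann cells are also known to express it. The 7 Schwann cell and peripheral nerve markers with a probe (of 10 listed, 4 of them with a group mean above 50) summed to 1264 to 1505 in young intact, 1264 to 1397 in aged intact, 2047 to 2321 in young injured and 1769 to 2025 in aged injured mice. Of the 4 tested, 1 differed between aged and young injured mice, Ncmap, a protein of Schwann cell myelin (limma, adjusted p = 0.0165). Its mean was 51.0 in young injured mice, close to the cutoff of 50. In aged injured mice the mean was 18.1, a level treated as not detected. Egr2, a transcription factor of myelinating Schwann cells, had means of 70.8 and 88.5 and did not pass that test (adjusted p = 0.494). The 10 fibroblast and meningeal markers summed to 13193 to 17976 in young injured and 11919 to 15974 in aged injured mice, and 2 of them, Fmod (1753 and 757) and Omd (177 and 71.5), were lower in aged injured mice (adjusted p = 0.00760 for both). The 12 astrocyte markers summed to 23565 to 26717 in young injured and 12560.3 to 20544 in aged injured mice, and 5 of the 12 were lower in aged injured mice. Over all tested genes, 4.58% were lower in that comparison. Young injured arrays were above the aged injured ones in the Schwann cell and astrocyte sums, the fibroblast sums overlapped, and the part of these cells in the Scn7a signal was not tested.

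**Figure D2:**
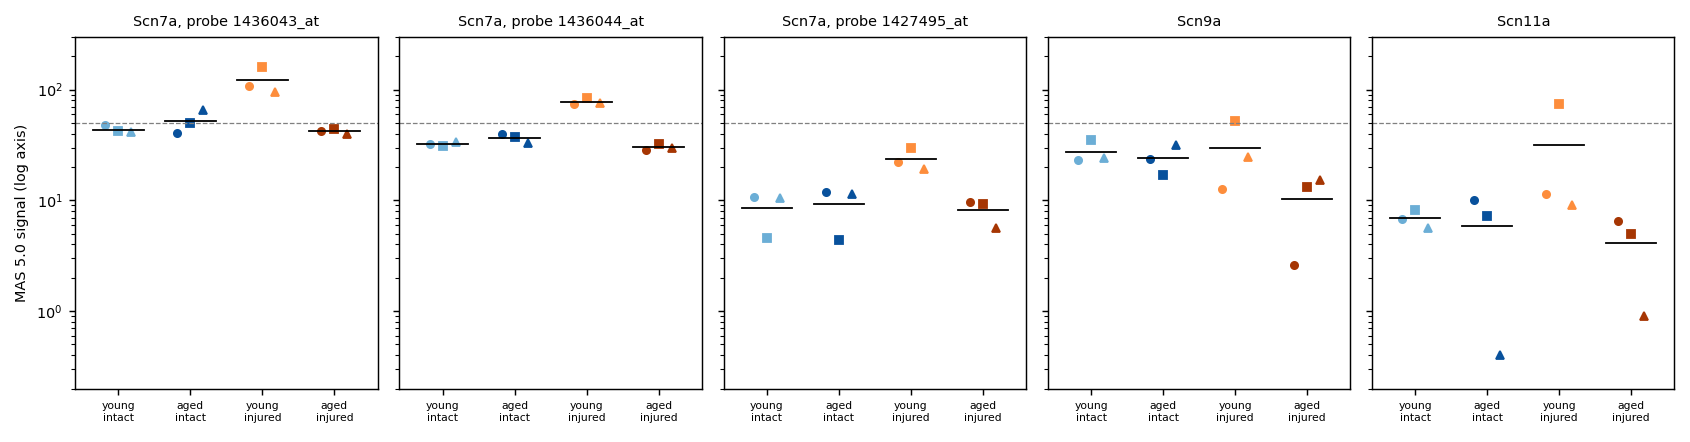
Signals of the 3 Scn7a probes and of Scn9a and Scn11a on each array (log axis), by group, with the group mean as a solid line and a signal of 50 as a dashed line; circle, square and triangle are replicates 1, 2 and 3. All 3 Scn7a probes are highest on the 3 young injured arrays, whereas Scn11a is raised on young injured replicate 2 alone.

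The pore genes Scn9a, Scn10a and Scn11a, which mark sensory neurons of the dorsal root ganglia, had no group mean above 50. A single array departed from this, young injured replicate 2, with 73.5 for Scn11a (11.5 and 9.0 in the other young injured mice, 0.4 to 10 elsewhere), 52.4 for Scn9a (12.6 and 24.7) and 14.9 for Scn10a (1.8 and 0.7). On the same array the sensory ganglion markers Avil and P2rx3 read 63.9 and 40.6, against 13.5 and 17.1 for Avil and 3.7 and 10.6 for P2rx3 in the other young injured mice. The 6 sensory ganglion markers with a probe (of 9 listed, 2 of them with a group mean above 50) summed to 752 there, to 361 and 415 in the other young injured mice, to 647 to 686 in young intact and 730 to 776 in aged intact mice, and to 83.3 to 398 in aged injured mice. This array also gave the highest Scn7a signal, 159.9 against 109 and 95.7 in the other young injured mice. The injury call of Scn7a in young mice held with any single array left out (limma, adjusted p of at most 0.000764). Its log2 difference was then at least 1.23.

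All 3 sodium beta genes fell at both ages. Scn4b, whose subunit shapes resurgent current in fast-firing neurons, read 417, 433 and 443 in young intact, 449, 515 and 496 in aged intact, 54.1, 118 and 88.3 in young injured and 17.1, 103 and 55.8 in aged injured mice. The injured arrays were all below the intact ones, by 5.22-fold in young mice (log2 difference -2.38, SE 0.51, adjusted p = 0.00174) and by at least 9.72-fold in aged mice (adjusted p = 0.000119), or 6.41-fold without aged injured replicate 1. Scn2b, which is bound to the pore subunit by a disulfide bridge, read 541, 526 and 552 in young intact, 494, 556 and 579 in aged intact, 109.7, 201 and 129.5 in young injured and 32.8, 164 and 94.1 in aged injured mice. Its falls were 3.80-fold in young (log2 difference -1.93, SE 0.45, adjusted p = 0.00298) and 6.80-fold in aged mice (log2 difference -2.76, SE 0.45, adjusted p = 0.000209), the latter 4.36-fold without aged injured replicate 1. Scn3b changed less, by 2.30-fold in young (adjusted p = 0.00374) and 2.70-fold in aged mice (adjusted p = 0.000936). Its means went from 155 ± 4.93 and 144 ± 12.6 in intact to 68.0 ± 12.2 and 57.6 ± 25.9 in injured mice. Its aged fold was 2.02 without aged injured replicate 1.

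The calcium channel pore genes moved in both directions. Cacna1b and Cacna1a encode the N-type and P/Q-type channels that trigger transmitter release, Cacna1e the R-type channel, and Cacna1d an L-type channel that opens at low voltage. Cacna1b read 105, 104 and 143 in young intact, 85.7, 140 and 123 in aged intact, 18.1, 56.5 and 25.1 in young injured and 4.8, 43.8 and 27.4 in aged injured mice. No injured array of Cacna1b reached the lowest intact one, and the falls were at least 2.32-fold in young (adjusted p = 0.0239) and at least 2.28-fold in aged mice (adjusted p = 0.00421). The young call of Cacna1b was lost without young intact replicate 3, young injured replicate 1 or young injured replicate 3 (adjusted p of up to 0.0904).

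Cacna1e had means of 183 ± 23.6 in young intact and 172 ± 33.5 in aged intact, 73.5 ± 21 in young injured and 43.3 ± 30.6 in aged injured mice. It fell at least 3.39-fold in aged mice (adjusted p = 0.00309), or 2.84-fold without aged injured replicate 1, and the log2 difference of -1.35 in young mice did not pass the test (adjusted p = 0.0593). Cacna1a lay close to 50, at 43.2 to 55.7 on the 6 intact arrays and 20.2 to 32.8 on the 6 injured ones, and it passed the test at both ages (adjusted p = 0.00647 and 0.00112). Its fall in aged mice was at least 1.01-fold, and in young mice both means were under 50, so that no fall of a detected gene was measured. With every signal below 50 set to 50, neither call for Cacna1a held (adjusted p = 0.435 and 0.468).

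Cacna1d was the calcium channel gene that rose. Its signals were 47.9, 25.0 and 38.1 in young intact, 39.9, 38.8 and 40.2 in aged intact, 54.2, 53.3 and 79.9 in young injured and 55.8, 59.1 and 66.7 in aged injured mice. Every injured array exceeded 50 and every intact array lay below it. Cacna1d entered the test through the injured groups alone, so this position around 50 was tied to its entry and adds nothing to the test. The rise was at least 1.23-fold in young (log2 difference 0.78, SE 0.23, adjusted p = 0.0107) and at least 1.21-fold in aged mice (log2 difference 0.61, SE 0.23, adjusted p = 0.0308). In aged mice the call was lost when any aged intact array, aged injured replicate 2 or aged injured replicate 3 was left out (adjusted p of up to 0.0910), and with signals below 50 set to 50 it was lost at both ages. No other probe of Cacna1d had a group mean above 50.

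Alpha-2-delta genes, whose proteins bring calcium channels to the surface and include the targets of gabapentin, fell at both ages. Cacna2d1 read 324, 296 and 336 in young intact, 287, 364 and 351 in aged intact, 149, 196 and 149 in young injured and 54.7, 154 and 109 in aged injured mice. This was a fall of 1.95-fold in young (log2 difference -0.96, SE 0.29, adjusted p = 0.0127) and 3.42-fold in aged mice (log2 difference -1.77, SE 0.29, adjusted p = 0.000233), with no overlap of injured and intact arrays, and the aged fold was 2.57 without aged injured replicate 1. Cacna2d3 read 334, 312 and 329.5 in young intact and 338, 336 and 330.3 in aged intact mice, and 95.4, 123 and 105 in young injured and 38.1, 104 and 74.6 in aged injured mice. No injured array of Cacna2d3 came near the intact ones, and it fell 3.03-fold in young (adjusted p = 0.000425) and 5.02-fold in aged mice (adjusted p = 2.25e-05), or 3.79-fold without aged injured replicate 1. Cacna2d2 fell 3.4-fold in young (adjusted p = 0.00270) and at least 4.63-fold in aged mice (adjusted p = 0.000443), or 3.10-fold without aged injured replicate 1.

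Of the cytoplasmic beta genes, Cacnb4, a beta subunit of brain and cord neurons, read 734, 711 and 777 in young intact, 784, 751 and 747 in aged intact, 209.8, 331 and 224 in young injured and 83.4, 261 and 198 in aged injured mice. The groups were apart at both ages, with falls of 2.97-fold in young (log2 difference -1.57, SE 0.33, adjusted p = 0.00164) and 4.68-fold in aged mice (log2 difference -2.23, SE 0.33, adjusted p = 0.000115). The aged fold of Cacnb4 was 3.35 without aged injured replicate 1. Cacnb2 fell at least 1.32-fold in young (adjusted p = 0.00171) and at least 1.40-fold in aged mice (adjusted p = 0.000247), from 61.5 to 75.2 on the 6 intact arrays to 16.3 to 36.3 on the 6 injured ones.

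In the Cacng family, Cacng2 (stargazin), which carries AMPA receptors to the synapse, gave the smallest adjusted p of the 21 genes at both ages. It read 352, 306 and 357 in young intact, 343, 308 and 344 in aged intact, 63.4, 64.2 and 69.9 in young injured and 30.7, 79.2 and 79.8 in aged injured mice. The young injured arrays lay close together, and the falls were 5.13-fold in young (log2 difference -2.36, SE 0.29, adjusted p = 4.48e-05) and 5.72-fold in aged mice (log2 difference -2.52, SE 0.29, adjusted p = 1.95e-05). The aged fold of Cacng2 was 4.17 without aged injured replicate 1. Cacng5 and Cacng7, the related genes of a second group of AMPA receptor partners, fell by at least 1.17-fold and 1.30-fold in young and at least 1.22-fold and 1.10-fold in aged mice, from signals between 49.4 and 75.7 on the intact arrays. Both young calls were lost when young intact replicate 1 or 3, or young injured replicate 1 or 3, was left out (adjusted p of up to 0.0851 for Cacng5 and 0.0820 for Cacng7). The aged call of Cacng7 was lost with signals below 50 set to 50 (adjusted p = 0.202) and with only the aged arrays in the fit (adjusted p = 0.0601). Cacng4 did not pass the test at either age (adjusted p = 0.152 in young and 0.135 in aged mice), with means of 83.5 ± 4.88 and 68.4 ± 9.30 in intact and 57.4 ± 2.15 and 51.4 ± 25.0 in injured mice.

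The 11 calcium channel genes of the 14 that were not tested stayed at or below 42.0 on every array. They include Cacna1c, an L-type pore gene (29.3 to 42.0 on intact and 13.3 to 24.5 on injured arrays), the T-type pore genes Cacna1g and Cacna1h, and Cacnb1 (26.6 to 35.4 on intact and 1.2 to 21.5 on injured arrays). Cacna1s and Cacng1, subunits of the skeletal muscle channel, read at most 5.4 on any array. No fold was computed for these genes.

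**Figure D3:**
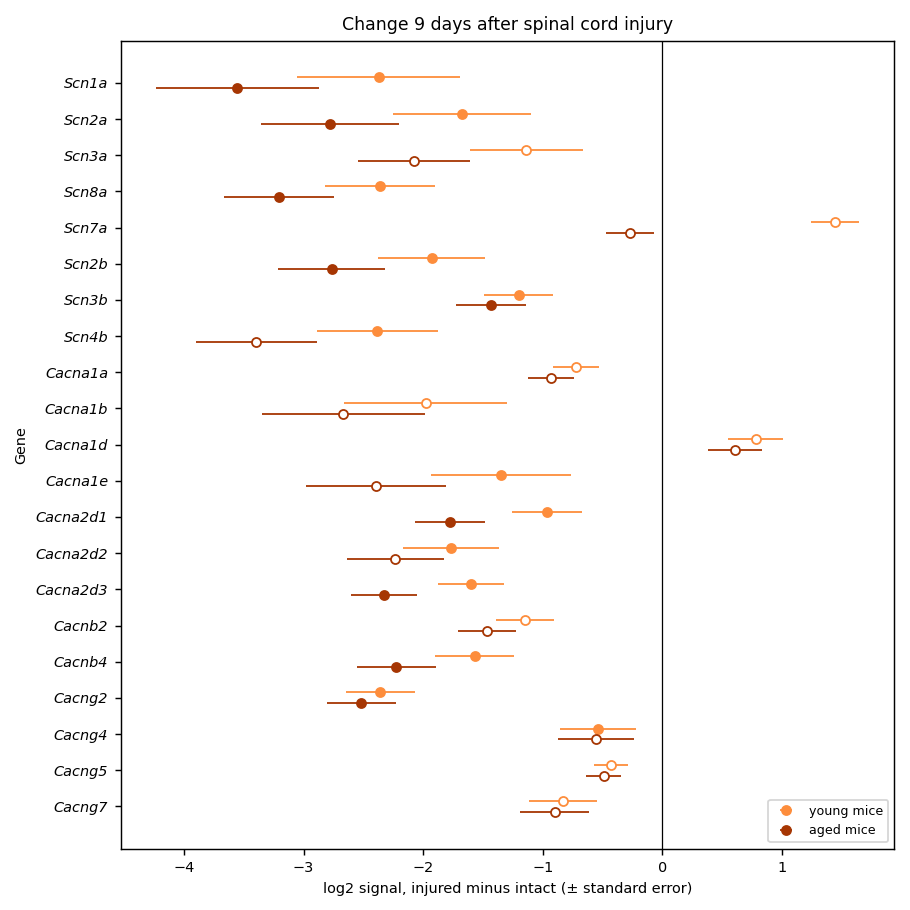
Log2 difference between injured and intact mice for each of the 21 tested genes, in young (light) and aged (dark) mice, with the standard error of the fit as a bar. Open symbols mark differences in which a group's geometric mean was under 50, which are no measure of fold; most genes lie to the left of 0, Cacna1d lies to the right at both ages and Scn7a in young mice only.

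Where other probes of these genes also had a group mean above 50, they were read as well. There were 16 such probes in 9 genes, and all 16 had the same sign of the injury difference as the probe used, in young and in aged mice.

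In the intact cord no difference between the ages passed the test. All 21 genes missed the threshold between aged and young intact mice (limma, lowest adjusted p = 0.853), and 0 had an unadjusted p under 0.05, while 0.809% of all tested genes passed. The log2 differences ran from -0.29 to 0.23 with a median of 0.03. Standard errors came from all arrays, with the more scattered injured ones, and reached 0.68. With only the intact arrays in the fit, 0 genes passed as well. All aged intact arrays lay above all young intact ones for Scn4b, and below them for Cacng4. The share of all tested genes apart in this way was not counted. After injury Scn7a alone differed between the ages, at least 2.37-fold lower in aged than in young injured mice (log2 difference -1.49, SE 0.20, adjusted p = 0.00542), where 4.58% of all tested genes were lower. It was also the 1 gene of the 21 with all aged injured arrays below all young injured arrays, which held for 14.1% of all tested genes. With the fit limited to the injured arrays, this call for Scn7a was lost (adjusted p = 0.0884).

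The remaining 20 genes had lower fitted values in aged than in young injured mice without passing the test. The median log2 difference over the 21 genes was -0.68, and it was -0.10 without aged injured replicate 1, beside -0.04 over all tested genes. Without aged injured replicate 2, in turn, 11 genes passed, adding Cacna1e, Cacna2d1, Cacna2d3, Cacnb4, Scn1a, Scn2a, Scn2b, Scn3a, Scn4b and Scn8a to Scn7a. The count of genes lower in aged injured mice thus changed with single aged injured arrays. The share of all tested genes that passed in this refit was not counted, so the 11 genes have no background beside them. In the test of the difference itself, the effect of injury differed between the ages for Scn7a alone, and the other 20 genes had adjusted p from 0.359 to 0.989.

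To set the channel genes against the neurons of the same tissue, the mean log2 signal of the 23 tested neuron markers was subtracted from every gene on each array. The neuron mean itself was 9.86 to 9.94 in young intact, 9.85 to 9.90 in aged intact, 7.97 to 8.69 in young injured and 5.98 to 8.53 in aged injured mice. On this scale most genes of the array rose after injury (67.8% in young and 88.5% in aged mice), that is, their signals fell less than those of the neuron markers or rose, and 0.143% in young and 0.542% in aged mice fell. Of the 21 channel genes, 2 rose and 0 fell in young mice (4 had an unadjusted p under 0.05), and 7 rose and 2 fell in aged mice. These counts moved with the fit, to 19 in young and 16 in aged mice with array weights, and to 11 and 4 with only the groups compared. The shares of all tested genes in these refits were not counted. Over the 21 genes the median fitted relative log2 change was 0.20 (young) and 0.16 (aged), whereas it was 1.54 and 2.34 over all tested genes. A change that missed the threshold here is not shown to be equal to that of neurons, since standard errors were about 0.40 to 0.58.

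Scn7a and Cacna1d rose relative to the neuron markers at both ages, and Cacna1a, Cacng4, Cacng5, Cacng7 and Scn3b in aged mice. With intact means under 50 set to 50, the relative rise was at least 2.79 on the log2 scale for Scn7a in young mice, and for Cacna1d at least 1.84 in young and 2.66 in aged mice (1.96 without aged injured replicate 1). No size is given for Scn7a, Cacna1a, Cacng4, Cacng5 and Cacng7 in aged mice, since their geometric means were under 50 in the injured mice, and a probe at that level rises against a falling neuron mean whatever its gene does. Scn3b was at 0.95 (adjusted p = 0.0468), or 0.62 without aged injured replicate 1. Scn1a (-1.17, SE 0.43, adjusted p = 0.0156) and Scn4b (-1.01, SE 0.40, adjusted p = 0.0256) fell more than the neuron markers in aged mice, and their values were -0.88 and -1.05 without aged injured replicate 1, the array that brought the aged injured geometric mean of Scn4b under 50. In young mice Scn1a was at -0.82 and Scn4b at -0.84 (adjusted p = 0.0874 and 0.0708). Scn8a was at -0.81 in young and -0.82 in aged mice without passing the test (adjusted p = 0.0793 and 0.0646). Cacng2 was at -0.81 in young and -0.13 in aged mice and did not pass either (adjusted p = 0.101 and 0.779).

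Several of these calls rested on single arrays or on the choice of fit. Without aged injured replicate 1, Scn8a passed at both ages and Scn1a and Scn4b passed in young mice too, and 11 genes passed at each age. Without aged injured replicate 2 the count in young mice was 5, and without aged intact replicate 2 the count in aged mice was 5. For these refits too, the share of all tested genes was not counted. With only the aged arrays in the fit, the calls for Scn1a, Scn3b, Scn4b, Cacna1a and Cacng7 were lost (adjusted p = 0.167, 0.261, 0.231, 0.0934 and 0.0861). In aged mice the call for Scn1a was also lost without aged intact replicate 2 and that for Cacna1a without aged intact replicate 3. The call for Scn4b was lost without young intact replicate 3, any aged intact array or aged injured replicate 3 (adjusted p of up to 0.0898), and that for Scn3b without any intact array, any young injured array or aged injured replicate 3 (adjusted p of up to 0.131).

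**Figure D4:**
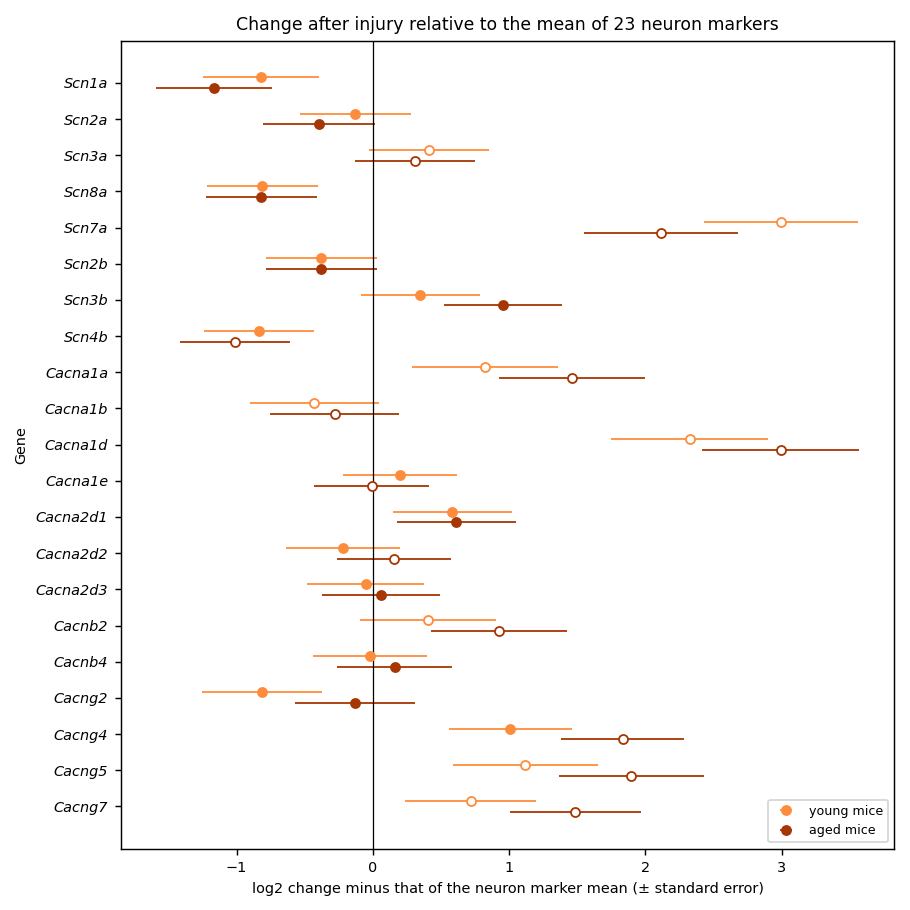
Log2 change after injury relative to the mean of 23 neuron markers for each tested channel gene, in young (light) and aged (dark) mice, with standard errors; 0 means a change equal to the neuron mean, and open symbols mark values in which a geometric mean of the gene was under 50, which are no measure of size. Scn1a, Scn8a and Scn4b lie farthest to the left of 0 at both ages, with Cacng2 beside them in young mice. Cacng2, Scn2a, Scn2b and Cacna1b also lie to the left at both ages, and Scn7a and Cacna1d lie farthest to the right.

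Genes whose products bind, anchor or regulate these channels were read from a separate list of 35, of which 30 had a probe and 22 were tested. In young mice 15 fell and 2 rose, and in aged mice 18 fell and 1 rose, with median log2 differences of -1.01 and -1.57 (-1.07 in aged mice without aged injured replicate 1). Of the fibroblast growth factor homologues that bind sodium channel pores inside the cell, Fgf12 fell 4.39-fold in young and 9.66-fold in aged mice (4.99-fold without aged injured replicate 1), and Fgf13 fell 3.37-fold and 5.24-fold (3.6-fold without it). The falls of Fgf11 and Fgf14, whose injured means were under 50, were at least 2.57-fold and 2.31-fold in young and at least 2.27-fold and 2.61-fold in aged mice. Rims1, which places calcium channels at release sites, fell 4.59-fold in young and at least 6.57-fold in aged mice (4.96-fold without that array). Unc80, a subunit of the sodium leak channel complex, fell 4.46-fold and 7.84-fold (4.60-fold without it). Snap25, a vesicle fusion protein, fell 5.08-fold in aged mice (2.45-fold without that array). In young mice Snap25 was 2.48-fold lower and did not pass the test (limma, adjusted p = 0.101). Nedd4l, a ubiquitin ligase that acts on sodium channels, rose 1.34-fold in young and 1.30-fold in aged mice, and the related Nedd4 rose 1.19-fold in young mice.

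Potassium channel genes (symbols starting with Kcn, 84 genes of which 43 were tested) gave similar counts. In young mice 33 fell and 5 rose and in aged mice 35 fell and 4 rose, with median log2 differences of -1.37 and -1.77, beside -1.35 and -2.23 for the sodium and calcium channel genes. The sodium channel genes alone had medians of -1.80 and -2.77 and the calcium channel genes alone -1.15 and -1.77. Without aged injured replicate 1 the aged medians were -1.36 for potassium, -2.01 for sodium and -1.36 for calcium channel genes. No difference between the families was tested.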

How the data were processed

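Gene expression was measured on 12 Affymetrix arrays, 1 per sample, from RNA of the Th9 segment of intact mice and of mice 9 days after contusion. The deposited values are intensities that the authors computed with MAS5 on a linear scale, at each of 45101 probes. The version of that software and any scan batch were not given in the sources used here. Probes were named from the platform annotation, 34958 to a single gene, 932 to several and 9211 to none, and the symbols of 34754 were checked against RefSeq gene identifiers. Genes with a group mean above 50 (10511 of 18194) were tested on log2 signals in R 4.3.3 with limma 3.58.1, with 1 mean per group over all arrays, moderated variances with a trend, and Benjamini-Hochberg adjustment over all tested genes at 0.05. The p-values measure the spread between these samples only, and 3 arrays per group limit the precision.

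The channel genes, the marker and partner lists and the comparisons were chosen with earlier results of these data known. The named genes were all channel genes, with values for those with a group mean above 50 and some values and counts for the others, up to 6 called partners of largest change for each injury comparison, and markers beside a result they move with. Values of channel genes under 50, and of Nedd4, Nedd4l, Ncmap, Egr2, Fmod, Omd, Avil and P2rx3, were chosen after they were seen. Folds are ratios of geometric means, with a geometric mean under 50 set to 50 and the fold then written as at least. The script was tested on simulated data. Alternatives were another scaling (quantile), other cutoffs (none, or 100), an offset of 16, a floor of 50, the mean over probes, no variance trend, array weights, only the groups compared, the replicate number as a block, another neuron mean and each array left out in turn.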

Additional observations from a re-analysis of the deposited data

Results flagged for a closer look

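The effect of injury on Scn7a differed between young and aged mice by a test of the difference itself. The log2 effect in aged mice minus that in young mice was -1.72 (limma, adjusted p = 0.0376), with a rise on 3 of 3 arrays in young mice and signals that overlapped with the intact ones in aged mice. Leaving out 1 array at a time gave adjusted p from 0.0227 to 0.108, and the difference kept its sign in each of these fits. The call was also lost with the mean over probes (0.0502), without a cutoff on signal (0.0521) and with the replicate number as a block (0.0676).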

How the results depend on the processing

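Of 1066 refitted values for the 50 called differences, 1001 kept direction and call, 65 kept direction and lost the call, and 0 reversed. With the mean over probes, for which 11 genes were tested, 9 fell and 1 rose in young mice, 10 fell and 0 rose in aged mice, the interaction gave 0, and 5 and 4 genes differed from the neuron markers in young and aged mice. With a cutoff of 100 (14 genes tested) 1 rose in young and 0 in aged mice, and 1 and 4 differed from the neuron markers. With a floor of 50, 1 rose in young and 0 in aged mice, and 6 differed from the neuron markers in young mice. Without a cutoff 2 rose in aged mice, 2 differed between the ages after injury, the interaction gave 0, and 8 and 15 differed from the neuron markers. Array weights gave 2 genes between the ages after injury and 19 and 16 against the neuron markers. Fitting only the groups compared gave 0 between the ages after injury and 11 and 4 against the neuron markers, and an offset of 16 gave 4 in young mice. Leaving out 1 array at a time, the counts were 12 to 19 genes lower and 2 higher in young mice, 17 to 19 lower and 0 to 1 higher in aged mice, 0 between the ages in intact mice, 1 to 11 after injury, 0 to 1 for the interaction, and 2 to 11 and 5 to 11 against the neuron markers. Residuals of arrays with the same replicate number in the titles correlated at -0.11 to 0.67 (median 0.02), and 4 of 12 arrays correlated best with their own number. Between young and aged injured arrays the values were 0.60 for replicate 1, 0.67 for replicate 2 and 0.01 for replicate 3. Whether the numbers mark a pairing or a shared batch was not tested. With the replicate number as a block, 18 genes fell and 2 rose in young mice, 18 fell and 1 rose in aged mice, and the interaction gave 0. The causes of these shifts were not tested, and the shares of all tested genes that passed were not counted for these fits. Signals near or under 50 limit Cacna1a, Cacna1b, Cacna1d, Cacnb2, Cacng5, Cacng7, Scn3a and Scn7a, for which only bounds or no folds could be given. For Cacna1e, Cacna2d2 and Scn4b the fold given over all aged arrays was a bound as well.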
